A study of Mus musculus with 8 samples.

Results

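The genes described are 6 mouse receptors for chemotactic proteins: Ccr1, Ccr2, Cxcr4 and Cx3cr1, which bind chemokines, and Cmklr1 and Ccrl2, which bind chemerin. They were taken by gene symbol, and all 6 had a row among the 15521 genes of the deposited table. RNA was sequenced from alveolar macrophages, the resident macrophages of the airspaces, which had been washed out of mouse lungs, enriched by 2 h of adherence to plastic and kept in culture with 10 ng/mL of GM-CSF. Each of 4 groups had 2 libraries. The vehicle group had DMSO alone, and the MSDC group had 10 μM of a compound that the labels give only as MSDC. The other groups had the same DMSO or MSDC from 2 h before, and then 5 μg/mL of Poly(I:C), a synthetic double-stranded RNA used to mimic viral RNA, for 24 h by the treatment protocol and overnight by the design text of the series. Lavage, adherence and GM-CSF were common to all 4 groups, and the labels give no mouse strain, age or sex. Nothing in the labels says that the libraries of a group came from separate mice or cultures, so the p-values speak only for the spread among these libraries, which may be technical. In bulk RNA, fewer cells that express a receptor and less of its RNA per cell cannot be told apart.

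Libraries held between 28762425 and 29493223 counts, and 11621 genes were tested. Log2 counts correlated at 0.990 or more within a group and at 0.977 or less between groups. Of 12 interferon-stimulated genes listed as a check of the stimulus, 11 were in the table, and all 11 rose with Poly(I:C) both in vehicle and in MSDC. All 12 alveolar macrophage markers listed were tested. Siglecf, a lectin used as a marker of these cells, stood between 300 and 336 counts per 1000000 (CPM, scaled with TMM factors as are all CPM given) in the 8 libraries. It alone among the 12 did not differ with MSDC at an adjusted p under 0.05. Of the 12 markers, 6 were higher and 5 lower with MSDC at that threshold, both without and with Poly(I:C). Among all genes tested, 23.5% and 26.1% passed it. In unstimulated cells the 4 markers with the smallest p rose, with log2 fold changes of 3.78 (Ear1), 3.49 (Cidec), 3.85 (Krt79) and 1.42 (Fabp4). The 5 lower markers ran from -0.25 (Car4) to -0.82 (Chil3).

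Chemokine receptors are G-protein-coupled receptors that steer leukocytes along gradients of small secreted proteins, mostly through Gi proteins. Ccr2 and Cx3cr1 are known from monocytes and the macrophages derived from them, and resident alveolar macrophages are known for little of either. Cmklr1 is a receptor through which chemerin signals, while Ccrl2 binds chemerin without signalling and can present it to neighbouring cells that carry Cmklr1.

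On GRCm38 in the RefSeq annotation, 4 of the 6 genes lie on chromosome 9. Ccrl2 spans chr9:111054834-111057518 on the minus strand, Cx3cr1 chr9:120048683-120068296 on the minus strand, Ccr1 chr9:123962126-123968692 on the minus strand and Ccr2 chr9:124101918-124109140 on the plus strand. Cmklr1 lies on the minus strand at chr5:113612355-113650475, and Cxcr4 on the minus strand at chr1:128588199-128592299. The protein is encoded by 1 exon in each gene except Cxcr4, where it is encoded by 2.

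The deposited Ccr2 counts were not whole numbers in any of the 8 libraries, to a tolerance of 1e-06, while those of the other 5 receptors were whole in all 8. Fractions can arise where a read that matches more than 1 place is divided. The sources used here do not say how such reads were assigned, and the Ccr2 values below are uncertain to that extent.

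Ccrl2 was the receptor that rose with Poly(I:C) in both backgrounds, and its upstream sequence is shown for that reason. RefSeq (GRCm38.p6) lists 8 promoter windows for the 6 receptors, 3 of them for Ccrl2, each with 250 bases before the start of transcription and 50 after it. These are the 250 bases before the most upstream start of Ccrl2, on the minus strand, 5′ to 3′, with matches to an NF-kB-like motif in capitals:
Ccrl2 at chr9:111057519-111057768: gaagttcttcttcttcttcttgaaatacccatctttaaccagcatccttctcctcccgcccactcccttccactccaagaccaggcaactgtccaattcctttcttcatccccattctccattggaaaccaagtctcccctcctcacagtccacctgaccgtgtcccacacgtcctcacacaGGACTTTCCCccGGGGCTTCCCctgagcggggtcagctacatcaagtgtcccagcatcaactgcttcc
The motif was GGGA, any 4 bases and CC on either strand, which 20.7% of 32851 RefSeq promoter windows of the same length hold. Both matches lie on the opposite strand, at 68 to 59 and at 56 to 47 bases before the start. Ccr1 held 1 match, 74 to 65 bases before its start, and the windows of the other 4 receptors held none. Other motifs, searched on both strands, were found in none of the 8 windows. They were GAAA, any 2 bases and GAAA (the core of an interferon-stimulated response element, in 3.44% of promoters), TTC, any 3 bases and GAA (a gamma-activated site, in 8.30%), and AGGTCA, any base and AGGTCA (a direct repeat bound by nuclear receptors, in 0.0396%). A match is only a match of letters, and no binding was measured.

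Cxcr4 and Ccr1 were the abundant receptors, Cmklr1 and Ccrl2 were intermediate, Ccr2 was low and Cx3cr1 was at the limit of detection. Levels are compared between genes as transcripts per 1000000 (TPM), which corrects for gene length. In vehicle the mean TPM was 86.1 ± 9.4 (SD, n = 2) for Cxcr4, the receptor for Cxcl12, which holds leukocytes in tissues. It was 80.0 ± 10.6 (SD, n = 2) for Ccr1, a receptor shared by several inflammatory CC chemokines, and the libraries of these 2 genes overlapped. Cmklr1 followed at 13.2 ± 0.9 TPM (SD, n = 2), Ccrl2 at 9.01 ± 0.17 TPM (SD, n = 2) and Ccr2 at 2.09 ± 0.11 TPM (SD, n = 2), with no overlap between neighbours in this order. Ranked among all genes of the table, Cxcr4 stood at the 88.5th percentile of the vehicle group and Ccr2 at the 36.5th.

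The order differed under MSDC. In MSDC alone, Ccr1 led at 58.5 ± 0.9 TPM (SD, n = 2), ahead of Cxcr4 at 38.0 ± 2.5 TPM (SD, n = 2). Ccrl2 came next at 9.20 ± 0.69 TPM (SD, n = 2), ahead of Cmklr1 at 1.55 ± 0.23 TPM (SD, n = 2), and Ccr2 was last of these at 0.48 ± 0.17 TPM (SD, n = 2). No neighbours in that order overlapped. With Poly(I:C) and vehicle, Ccr1 (90.4 ± 4.7 TPM, SD, n = 2) and Cxcr4 (90.3 ± 1.1 TPM, SD, n = 2) overlapped, as did Cmklr1 (21.7 ± 3.5 TPM, SD, n = 2) and Ccrl2 (18.9 ± 0.9 TPM, SD, n = 2), and Ccr2 was at 2.16 ± 0.17 TPM (SD, n = 2). With Poly(I:C) and MSDC the order was that of MSDC alone, from Ccr1 at 56.9 ± 3.8 TPM (SD, n = 2) through Cxcr4 at 39.8 ± 1.1, Ccrl2 at 14.1 ± 1.8 and Cmklr1 at 2.29 ± 1.30 to Ccr2 at 0.635 ± 0.290 TPM, again without overlap.

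The chemerin pair traded places. The TPM of Ccrl2 divided by that of Cmklr1 was 0.662 and 0.707 in the vehicle libraries and 0.756 and 1.02 in those with Poly(I:C) and vehicle. It was 5.67 and 6.31 in the MSDC libraries and 4 and 11.3 in those with Poly(I:C) and MSDC, so that all 4 libraries with MSDC lay above all 4 without it. The TPM summed over the 6 receptors was 176 to 224 in the 4 libraries without MSDC and 104 to 117 in the 4 with it.

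Cx3cr1, the receptor for the membrane-bound chemokine Cx3cl1, had 2 and 3 counts in the vehicle libraries, 1 and 0 in the MSDC libraries, and 0 in all 4 libraries with Poly(I:C). None of these counts is above 3, the upper limit that a count of 0 allows, which corresponds to 0.102 to 0.104 CPM in a library for counting error alone. The gene did not pass the filter on low counts and was not tested, and no difference between groups was detectable at this depth. Its ligand Cx3cl1 was measured at 12.5 to 17.5 CPM.

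**Figure D1:**
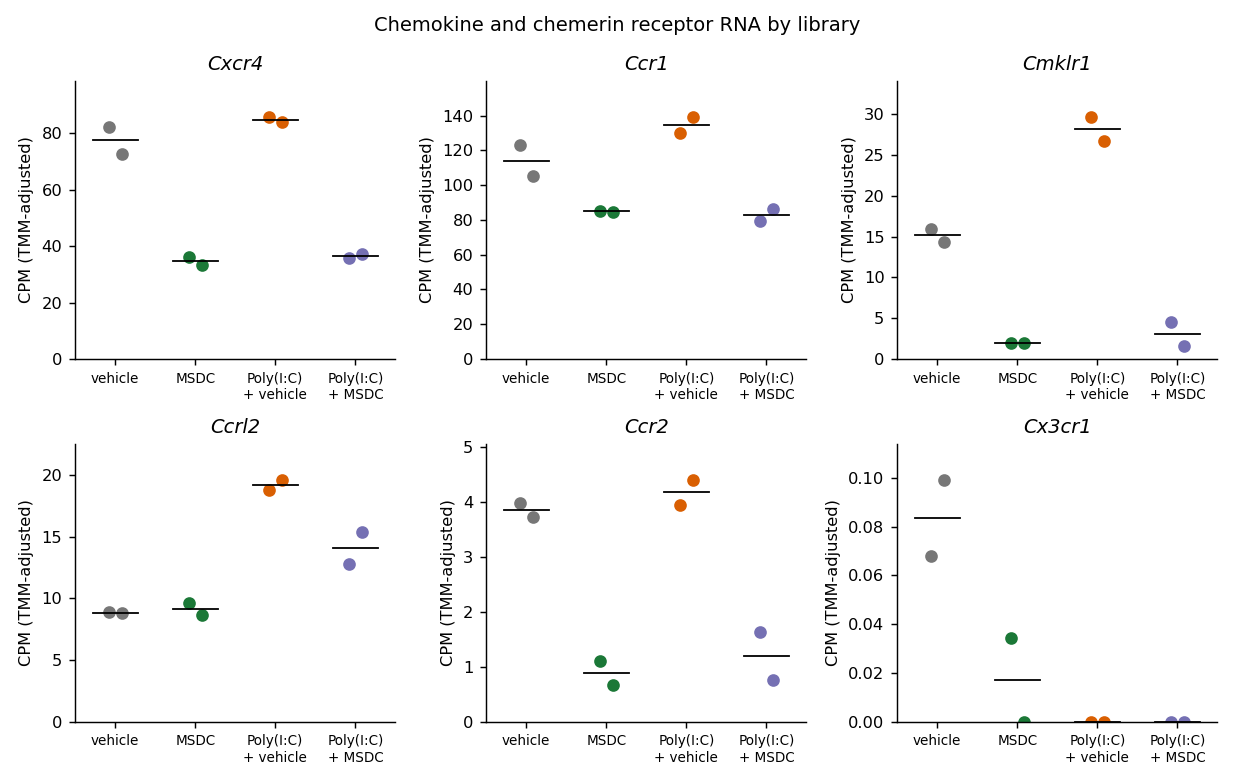
CPM of each of the 6 receptors by group, with 1 point per library and a bar at the group mean; each panel has its own axis from 0. Cxcr4, Cmklr1 and Ccr2 are lower in the MSDC groups whether or not Poly(I:C) was given, Ccrl2 is higher in the Poly(I:C) groups, and Cx3cr1 stays below 0.1 CPM in every library.

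Poly(I:C) raised both chemerin receptors in vehicle-treated cells and left the chemokine receptors Ccr1, Ccr2 and Cxcr4 without a change that passed the test. A gene was called at an adjusted p under 0.05 (edgeR quasi-likelihood test, Benjamini-Hochberg over all genes tested, two-sided). By this rule 2 of the 5 receptors tested were called, both higher, where 11.6% of all genes were called, 7.52% higher and 4.1% lower. With library totals in place of TMM scaling, the balance of calls over all genes moved from 874 higher and 477 lower to 729 higher and 867 lower, and the receptors called stayed at 2. The Poly(I:C) and the MSDC comparisons share libraries, so their values are given side by side and not as support for each other.

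Ccrl2 stood at 8.87 and 8.82 CPM in vehicle and at 18.8 and 19.6 CPM with Poly(I:C), with no overlap. The log2 fold change was 1.12 (SE 0.12, edgeR adjusted p = 6.6e-06), a rise of 2.17-fold, and it passed the test under all 17 alternatives. In MSDC-treated cells Ccrl2 went from 9.60 and 8.62 CPM to 12.8 and 15.4 CPM. The groups again did not overlap, and the log2 fold change was 0.63 (SE 0.12, edgeR adjusted p = 0.0037). It was the only receptor of 5 called in MSDC-treated cells, where 6.32% of genes were called, 4.82% higher and 1.5% lower. That call did not hold when MSDC replicate 2 (0.55, edgeR adjusted p = 0.079) or replicate 2 of the stimulated MSDC group (0.48, edgeR adjusted p = 0.092) was left out.

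Cmklr1 stood at 16.0 and 14.3 CPM in vehicle and at 29.6 and 26.8 CPM with Poly(I:C). The groups did not overlap, and the log2 fold change was 0.90 (SE 0.20, edgeR adjusted p = 0.0068), or 1.86-fold. This call was lost in 5 of 17 alternatives, all with the same direction. They were DESeq2 (0.89, SE 0.47, adjusted p = 0.26), limma on log2(FPKM + 0.1) (0.70, adjusted p = 0.17), on log2(FPKM + 1) (0.64, adjusted p = 0.057) and on log2(TPM + 0.1) (0.71, adjusted p = 0.17), and edgeR with replicate 1 of the stimulated vehicle group left out (0.80, adjusted p = 0.058).

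The units of Cmklr1 also did not keep pace with each other. Its deposited count per TPM, set against that of Ccr1 in the same library, varied between 0.787 and 0.957 over the 8 libraries. That is a spread of 21.5%, against at most 4.67% for Ccr2, Ccrl2 and Cxcr4, and the high values fell in 1 library of 3 groups (MSDC replicate 2, replicate 2 of Poly(I:C) with vehicle and replicate 1 of Poly(I:C) with MSDC). The sources used here do not say how the length of Cmklr1 was set in each library.

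In MSDC-treated cells Cmklr1 stood at 1.96 and 1.93 CPM without Poly(I:C) and at 4.49 and 1.64 CPM with it. The replicates with Poly(I:C) lay on either side of those without, and the log2 fold change of 0.66 (SE 0.32, 95% interval -0.03 to 1.35, edgeR adjusted p = 0.33) did not pass the test. It was -0.24 without replicate 1 of the stimulated group and 1.20 (edgeR adjusted p = 0.0019) without replicate 2, so 1 library decided its sign. With no filter on low counts it was 0.65 and passed the test (edgeR adjusted p = 0.017).

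For Ccr1 and Cxcr4 the response to Poly(I:C) was small. Ccr1 stood at 123 and 105 CPM in vehicle and at 129.9 and 139 CPM with Poly(I:C). These groups did not overlap, but the log2 fold change of 0.24 (SE 0.08, edgeR adjusted p = 0.065) missed the threshold, and it passed without vehicle replicate 1 (0.35, edgeR adjusted p = 0.0022) and with no filter on low counts (0.23, edgeR adjusted p = 0.022). Cxcr4 stood at 82.2 and 72.6 CPM in vehicle and at 85.6 and 84.0 CPM with Poly(I:C). The difference of 0.13 on the log2 scale had a 95% interval of -0.03 to 0.29 (edgeR adjusted p = 0.32). In MSDC-treated cells the log2 fold changes were -0.04 (95% interval -0.21 to 0.13) for Ccr1 and 0.07 (95% interval -0.11 to 0.24) for Cxcr4, and the libraries of both genes overlapped between groups.

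Ccr2 did not pass the test for Poly(I:C). Ccr2, the receptor through which Ccl2 draws monocytes into inflamed tissue, had 3.97 and 3.73 CPM in vehicle and 3.95 and 4.40 CPM with Poly(I:C), a log2 fold change of 0.12 (95% interval -0.45 to 0.68). In MSDC-treated cells it was 0.44 (95% interval -0.35 to 1.23), and it was -0.21 without replicate 1 of Poly(I:C) with MSDC.

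MSDC lowered 4 of the 5 receptors tested in unstimulated cells, by most in Cmklr1 and by least in Ccr1, and Ccrl2 alone did not pass the test. Of all genes tested, 23.5% were called in this comparison, 11.1% higher and 12.4% lower. In cells given Poly(I:C) all 5 were lower, where 26.1% of genes were called, 12.5% higher and 13.6% lower. The median log2 fold change of the 5 was -1.15 without Poly(I:C) and -1.22 with it, beside medians of -0.0015 and -0.0024 over all genes tested. Among all genes, 3.24% were called and at least 2-fold lower in unstimulated cells and 3.43% in stimulated cells. Cmklr1, Ccr2 and Cxcr4 were beyond 2-fold in both comparisons.

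Cmklr1 had 1.96 and 1.93 CPM in MSDC against 16.0 and 14.3 CPM in vehicle. The log2 fold change was -2.96 (SE 0.27, edgeR adjusted p = 4.5e-07), so the level was 7.79-fold lower. In stimulated cells it had 4.49 and 1.64 CPM under MSDC against 29.6 and 26.8 CPM in vehicle. There the log2 fold change was -3.20 (SE 0.24, edgeR adjusted p = 5.4e-08), or 9.19-fold lower, and over the 17 alternatives it ran from -4.10 to -2.54. Both calls held under all 17 alternatives.

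Cxcr4 had 36.2 and 33.4 CPM in MSDC against 82.2 and 72.6 CPM in vehicle. Its log2 fold change was -1.15 (SE 0.08, edgeR adjusted p = 1.9e-08), or 2.23-fold lower. Given Poly(I:C), the cells had 35.8 and 37.1 CPM under MSDC against 85.6 and 84.0 CPM in vehicle, a log2 fold change of -1.22 (SE 0.08, edgeR adjusted p = 9.2e-09). The 4 libraries with MSDC thus lay between 33.4 and 37.1 CPM and the 4 without it between 72.6 and 85.6 CPM.

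Ccr2 had 1.10 and 0.676 CPM in MSDC against 3.97 and 3.73 CPM in vehicle. Its log2 fold change was -2.11 (SE 0.32, edgeR adjusted p = 0.00011). In stimulated cells it had 1.64 and 0.768 CPM under MSDC against 3.95 and 4.40 CPM in vehicle, a log2 fold change of -1.79 (SE 0.31, edgeR adjusted p = 0.00032). No library with MSDC reached the lowest library without it. On log2(FPKM + 1), a scale that compresses low genes, limma gave -0.75 (adjusted p = 0.0003) and -0.69 (adjusted p = 0.00047). Without replicate 1 of Poly(I:C) with MSDC the value in stimulated cells was -2.43 (edgeR adjusted p = 0.00031).

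Because Ccr2 is a monocyte marker, the other monocyte markers are given beside it. Of these, 5 were in the table, summing to 88.0 to 94.0 CPM in vehicle, 93.3 to 109 CPM in MSDC, 119.9 to 121 CPM in Poly(I:C) with vehicle and 109.8 to 121 CPM in Poly(I:C) with MSDC, most of it Itgam, an integrin that macrophages also carry. Of the defining markers, Ly6c2 had 0 to 7 counts and F13a1 at most 7 in a library. Cd177, also in this list but known mainly from neutrophils, had none. Vcan, a proteoglycan of monocytes, was low, at 1.05 and 1.12 CPM in vehicle and 0.447 and 0.406 CPM in MSDC. It fell with MSDC by 1.34 without Poly(I:C) (SE 0.40, edgeR adjusted p = 0.022) and by 1.21 with it (SE 0.31, edgeR adjusted p = 0.0082) on the log2 scale. Unlike Ccr2, Vcan rose with Poly(I:C) in vehicle (1.36, SE 0.31, edgeR adjusted p = 0.0087). Itgam was not called with MSDC, either without Poly(I:C) (0.17, SE 0.08, edgeR adjusted p = 0.17) or with it (-0.04, SE 0.08, edgeR adjusted p = 0.77).

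Markers of interstitial macrophages also moved with MSDC. The 8 genes listed besides Cx3cr1 summed to 4171 to 4785 CPM in vehicle and 592 to 626 CPM in MSDC, and to 5395 to 5708 CPM and 838 to 962 CPM with Poly(I:C). Nearly all of this was the elastase Mmp12, which alveolar macrophages are also known to make. The other 7 summed to 6.84 to 7.47 CPM in vehicle, 3.96 to 5.31 CPM in MSDC, 4.71 to 5.70 CPM in Poly(I:C) with vehicle and 3.46 to 3.76 CPM in Poly(I:C) with MSDC, and Folr2 had at most 2 counts in a library. Alveolar macrophage markers summed to 13441 to 13660 CPM in vehicle and 11449 to 11472 CPM in MSDC, with 6 of 12 higher and 5 lower.

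Markers of other cell types were low or rested on 1 or 2 genes. The 4 neutrophil markers in the table summed to 37.6 to 40.8 CPM in vehicle and 12.3 to 16.8 CPM in MSDC, and to 45.0 to 47.7 CPM and 14.0 to 24.4 CPM with Poly(I:C). Most of that was the collagenase Mmp8, at 29.2 and 33.6 CPM in vehicle, which fell with MSDC by 2.60 (SE 0.25, edgeR adjusted p = 1e-06) and by 1.82 (SE 0.23, edgeR adjusted p = 1.7e-05) on the log2 scale without and with Poly(I:C). None of the other 3 was called lower: S100a8 was called higher in unstimulated cells (0.60, SE 0.18, edgeR adjusted p = 0.024) and not in stimulated cells (0.39, SE 0.18, edgeR adjusted p = 0.14), and Csf3r and Cxcr2 passed the test in neither. The 6 dendritic cell markers summed to 7.96 to 9.51 CPM in vehicle and 4.34 to 5.00 CPM in MSDC, and to 12.1 to 14.6 CPM and 6.25 to 7.76 CPM with Poly(I:C), mostly the lectin receptor Clec9a. Flt3, another of these markers, had at most 2 counts. On the log2 scale Clec9a fell with MSDC by 0.89 (SE 0.21, edgeR adjusted p = 0.0048) without Poly(I:C) and by 0.95 (SE 0.18, edgeR adjusted p = 0.0010) with it. Zbtb46, also in this list, fell by 1.29 (SE 0.28, edgeR adjusted p = 0.0030) and by 1.26 (SE 0.29, edgeR adjusted p = 0.0040). Ccr7, the remaining dendritic cell marker tested, passed in neither. The 8 lymphocyte markers summed to at most 0.312 CPM. The 8 epithelial, endothelial and stromal markers summed to 73.4 to 78.3 CPM in vehicle and 55.9 to 63.4 CPM in MSDC, and to 53.8 to 54.6 CPM and 47.7 to 47.8 CPM with Poly(I:C). Most of it was the cadherin Cdh1, which fell with MSDC in unstimulated cells by 0.32 on the log2 scale (SE 0.08, edgeR adjusted p = 0.0047). Cdh5, a cadherin of endothelium at 2.65 and 1.72 CPM in vehicle, also fell with MSDC, by 1.74 (SE 0.35, edgeR adjusted p = 0.0014) without and by 2.17 (SE 0.33, edgeR adjusted p = 0.00012) with Poly(I:C). The part of these markers in the receptor results was not tested.

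Ccr1 had 85.3 and 84.5 CPM in MSDC against 123 and 105 CPM in vehicle, with no overlap. Its log2 fold change was -0.42 (SE 0.08, edgeR adjusted p = 0.00082), or 1.34-fold lower. In stimulated cells it had 79.2 and 86.2 CPM under MSDC against 129.9 and 139 CPM in vehicle. The log2 fold change there was -0.70 (SE 0.08, edgeR adjusted p = 5.5e-06), or 1.63-fold lower. Both calls held under all 17 alternatives.

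Ccrl2 had 9.60 and 8.62 CPM in MSDC against 8.87 and 8.82 CPM in vehicle. Those libraries overlapped, and the log2 difference of 0.04 had a 95% interval of -0.23 to 0.31 (edgeR adjusted p = 0.86). Among stimulated cells the values were 12.8 and 15.4 CPM under MSDC against 18.8 and 19.6 CPM in vehicle. The groups did not overlap, and the log2 fold change was -0.45 (SE 0.12, edgeR adjusted p = 0.0090), or 1.36-fold lower. This call did not hold when replicate 2 of the stimulated vehicle group (-0.41, edgeR adjusted p = 0.053) or replicate 1 of the stimulated MSDC group (-0.32, edgeR adjusted p = 0.13) was left out.

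**Figure D2:**
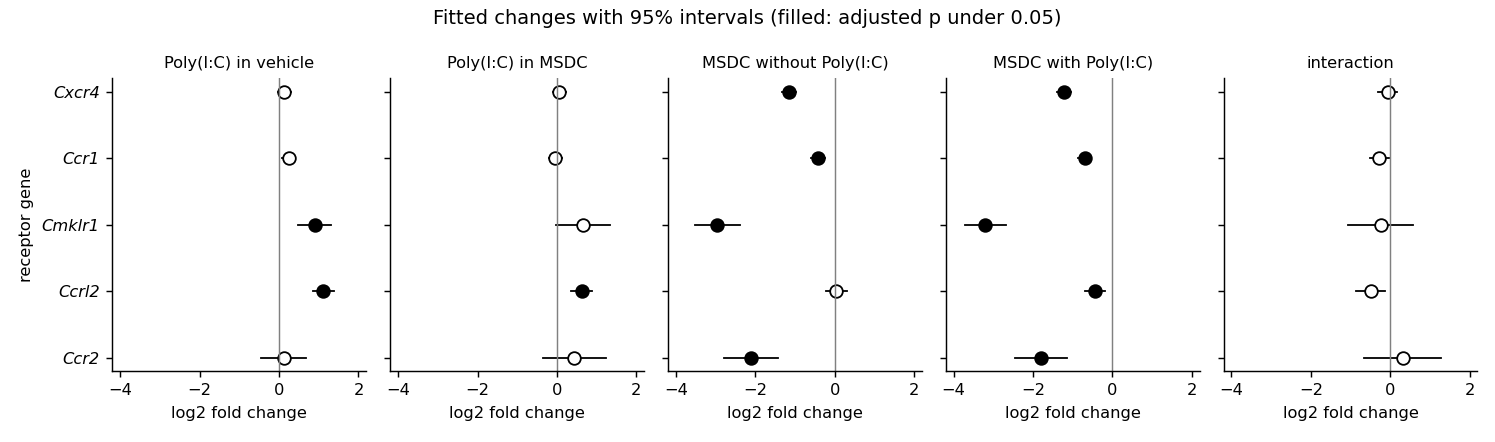
Fitted log2 fold changes of the 5 tested receptors with their 95% intervals in the 5 comparisons; filled circles mark an adjusted p under 0.05. Under MSDC 4 and 5 of the circles are filled and lie left of 0, under Poly(I:C) 2 and 1 are filled and lie right of 0, and none is filled for the interaction.

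The interaction asks whether the response to Poly(I:C) differed between MSDC and vehicle. None of the 5 receptors passed this test in edgeR, in DESeq2 or in limma, and 0.224% of all genes did in edgeR. At an unadjusted p under 0.05 there were 2 of 5, where 6.51% of all genes reached that level. They were Ccrl2, whose response was smaller in MSDC by -0.49 on the log2 scale (95% interval -0.85 to -0.12, edgeR adjusted p = 0.57), and Ccr1 at -0.28 (95% interval -0.52 to -0.04, edgeR adjusted p = 0.71). The intervals of Cmklr1 (-1.06 to 0.58) and Ccr2 (-0.65 to 1.29) were wide, and that of Cxcr4 was -0.30 to 0.17. That Ccrl2 was called lower under MSDC with Poly(I:C) only is therefore not shown to be a difference between the 2 settings.

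The ligands of these receptors changed in part, some with Poly(I:C) and some with MSDC. Of 13 ligands listed, 12 were in the table and 10 were tested. Rarres2, which encodes chemerin, is not analysed here. Cxcl12, the ligand of Cxcr4, had at most 1 count in a library and Ccl8 none. With Poly(I:C), 7.52% of all genes were called higher and 4.1% lower in vehicle, and 4.82% and 1.5% in MSDC. Of the 10 ligands none fell with Poly(I:C), though 1 fell in vehicle with library totals in place of TMM scaling. In vehicle 5 of 10 rose (median log2 fold change 0.93), and in MSDC 4 of 10 rose (median 0.58). Without MSDC replicate 1 the latter count was 2. With MSDC, 2 rose and 3 fell in unstimulated cells, where 11.1% of all genes were called higher and 12.4% lower. In stimulated cells 1 rose and 6 fell, where 12.5% of all genes were called higher and 13.6% lower. The medians of the ligands were -0.48 and -0.84.

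Ccl2, the main ligand of Ccr2, stood at 16.7 and 14.2 CPM in vehicle, 76.7 and 75.9 CPM with Poly(I:C), 1.07 and 2.40 CPM in MSDC, and 5.29 and 5.20 CPM with Poly(I:C) and MSDC. The log2 fold change with MSDC was -3.15 (SE 0.20, edgeR adjusted p = 8.4e-09) without Poly(I:C) and -3.86 (SE 0.16, edgeR adjusted p = 6.2e-11) with it. Both the receptor and this ligand were thus lower in the cells given MSDC. Other ligands of Ccr2 were sparse, as Ccl7 stayed at or below 0.831 CPM and Ccl12 at or below 0.803 CPM in every library.

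The ligands of Ccr1 did not move alike under MSDC. Ccl3, a macrophage inflammatory protein, fell by 1.30 (SE 0.08) and by 1.60 (SE 0.08) on the log2 scale without and with Poly(I:C). Ccl9 rose instead, from 848 and 770 CPM in vehicle to 1683 and 1667 CPM in MSDC, a log2 fold change of 1.05 (SE 0.06, edgeR adjusted p = 4.9e-09). Ccl6, the most abundant of the ligands on the CPM scale, stood at 12889.9 to 15471 CPM in all 8 libraries. Its log2 fold change with MSDC was -0.05 (SE 0.06, edgeR adjusted p = 0.63) without Poly(I:C) and -0.16 (SE 0.06, edgeR adjusted p = 0.048) with it.

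Ccl5, which also binds Ccr1, and Ccl4, a macrophage inflammatory protein, rose with Poly(I:C). Ccl5 went from 0.578 and 0.264 CPM in vehicle to 14.3 and 15.1 CPM with Poly(I:C), and to 5.50 and 4.78 CPM with Poly(I:C) and MSDC. Its log2 fold change with MSDC was -1.52 (SE 0.21, edgeR adjusted p = 3.8e-05) in stimulated cells. Ccl4 had a log2 fold change with Poly(I:C) of 1.17 (SE 0.12) in vehicle, and with MSDC of -1.80 (SE 0.15) in unstimulated cells. Mif, which can bind Cxcr4, stood at 131 to 162 CPM and differed by at most 0.23 on the log2 scale in any of the 4 comparisons. That largest value was a called rise with MSDC in unstimulated cells (SE 0.07, edgeR adjusted p = 0.017), and Mif was called in none of the others.

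Few other chemokine receptors were detected. Of 19 listed, 14 were in the table and 3 were tested, and Cxcr1 was the 1 above 1 TPM in any group. Its mean TPM was 117 ± 14 (SD, n = 2) in vehicle and 153 ± 17 (SD, n = 2) in MSDC. It was 131 ± 9 (SD, n = 2) in Poly(I:C) with vehicle and 159 ± 15 (SD, n = 2) in Poly(I:C) with MSDC. These means lay above those of Cxcr4 and Ccr1 in all 4 groups. Cxcr1, a receptor known from neutrophils, went from 67.3 and 57.7 CPM in vehicle to 89.4 and 78.9 CPM in MSDC (log2 fold change 0.43, SE 0.09, edgeR adjusted p = 0.0027). With Poly(I:C) its value was 0.24 (SE 0.09, edgeR adjusted p = 0.071), and without MSDC replicate 1 the call for Cxcr1 was lost.

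Receptors for other chemoattractants split in both directions under MSDC. Of 12 listed, 10 were tested, and 4 rose and 4 fell in unstimulated cells, with 5 and 4 in stimulated cells. The shares of all genes called higher and lower were 11.1% and 12.4% in unstimulated cells, and 12.5% and 13.6% in stimulated cells. In unstimulated cells the log2 fold change was 6.38 (SE 0.16, edgeR adjusted p = 1.9e-13) for C5ar1, the receptor for the complement fragment C5a, and 3.45 (SE 0.19) for C5ar2, its partner receptor. It was 1.79 (SE 0.09) for Fpr1, a receptor for bacterial formyl peptides. P2ry6, a receptor for the nucleotide UDP, fell by 1.44 (SE 0.08, edgeR adjusted p = 2.1e-09). C5ar1 rose from 2.24 and 2.31 CPM to 193 and 188 CPM, which is above the level of any of the 6 receptors in MSDC on the CPM scale, a scale that does not correct for length.

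**Figure D3:**
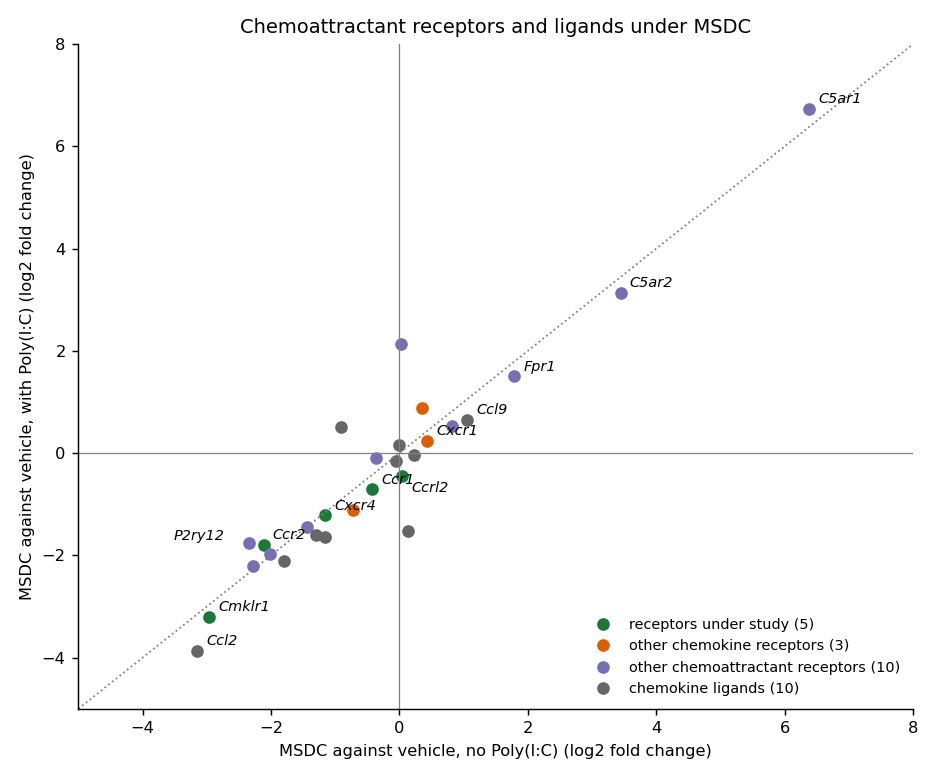
Log2 fold change with MSDC in stimulated cells against that in unstimulated cells for 28 tested receptor and ligand genes, coloured by group, with a dotted line where both are equal. Cxcr4, Cmklr1 and Ccr2 lie at the lower left with Ccl2, Ccrl2 lies near 0, and C5ar1 lies at the upper right.

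Genes that carry or end the signal of chemokine receptors changed in part with MSDC. Of 30 listed, 26 were tested. With MSDC, 11.1% of all genes were called higher and 12.4% lower in unstimulated cells, and 12.5% and 13.6% in stimulated cells. Of the 26, 2 rose and 10 fell in unstimulated cells, and 4 rose and 11 fell in stimulated cells, with medians of -0.12 and -0.13. Leaving out replicate 2 of the stimulated MSDC group made the latter 1 and 7, and leaving out replicate 2 of the stimulated vehicle group made them 2 and 7. The 4 with the smallest p in unstimulated cells were Rgs1, Rgs2, Gng2 and Rac2, and all 4 fell. Rgs1 and Rgs2, which switch off Gi and Gq signals, fell by 1.29 (SE 0.11) and 0.86 (SE 0.10) on the log2 scale, the G-protein subunit Gng2 by 1.08 (SE 0.11), and Rac2, a GTPase of leukocyte movement, by 0.53 (SE 0.06).

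The genes most like each receptor over the 8 libraries were named by the Pearson correlation of log2 CPM among 9078 genes that averaged at least 5 CPM. The 8 libraries form 4 groups, so these values mostly restate the group means. They were Entpd1 (0.997), Gng2 (0.996) and Qpct (0.996) for Cxcr4. For Cmklr1 they were Ccnd3 (0.992), Hgf (0.992) and Mmp14 (0.989), and for Ccr2 they were Elmsan1 (0.994), Zfp385a (0.991) and Map4 (0.985). For Ccr1 they were Phlpp1 (0.989), Ch25h (0.987) and Tmem63a (0.985). The genes most like Ccrl2 were F11r (0.991), H2-Q4 (0.987) and Npc2 (0.985). Between the receptors themselves, Ccr1, Ccr2, Cmklr1 and Cxcr4 correlated with one another at 0.87 to 0.97, and Ccrl2 with each of them at 0.27 to 0.44, over the same 8 libraries.

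Of the other genes near the receptors on chromosome 9, none that was tested passed the test. Of 8 listed, 4 were tested (Lztfl1, Fyco1, Sacm1l and Limd1), and none was called in any of the 5 comparisons. Among all genes, 23.5% and 26.1% were called with MSDC, without and with Poly(I:C). With Poly(I:C) the shares were 11.6% in vehicle and 6.32% in MSDC, and 0.224% were called for the interaction. Beside these shares, none called among 4 genes is no result about the region. Their largest log2 difference with MSDC was that of Fyco1, at 0.29 on the log2 scale (SE 0.11, edgeR adjusted p = 0.078).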

How the data were processed

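RNA-seq libraries of 8 samples of cultured mouse alveolar macrophages were analysed, 2 in each of 4 groups set by the labels. The table deposited by the authors lists 15521 genes and holds, per the file headers, 3 values for each gene and sample, namely an expected count, FPKM and TPM. The expected counts are not scaled to depth, and 5.95 to 7.19% of a library's values were not whole. They were rounded for testing. Bowtie2 2.3.4, TopHat2 2.1.1, Cuffdiff and the build GRCm38 (mm10) are listed in the submitters' processing notes with no role. Gene symbols turned into dates (23) were repaired from gene identifiers.

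Genes were filtered with filterByExpr (11621 kept) and scaled by TMM (0.985 to 1.027). A quasi-likelihood model of the 4 groups was fitted to all 8 libraries (edgeR 4.0.16, R 4.3.3, tested on simulated data). P-values were adjusted by Benjamini-Hochberg within each of 5 comparisons and called under 0.05, two-sided. The SE is the log2 fold change divided by the root of F. Alternatives used DESeq2 1.42.0, limma 3.58.1, other scalings and filters, and left-out libraries. Sequences came from RefSeq (GRCm38.p6), and exon numbers from GENCODE M21.

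The members, gene lists and tests were chosen with earlier results of these data known. Named were all 6 receptors, their tested ligands, other chemokine receptors above 1 TPM, up to 4 genes of each other list by smallest p, and the 3 genes most correlated with each receptor. Further list members named for absence or as markers were chosen after their values were seen. Some listed genes are not reported here.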

Additional observations from a re-analysis of the deposited data

How the results depend on the processing

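Across 17 alternatives the MSDC calls of Cmklr1, Ccr2, Cxcr4 and Ccr1 kept their direction and their side of the threshold in both comparisons. The number of receptors called with Poly(I:C) in vehicle went from 2 to 3 with no filter, where Ccr1 was also called, and to 1 with DESeq2, with limma on log2(FPKM + 0.1), log2(FPKM + 1) and log2(TPM + 0.1), and ran from 1 to 3 when 1 library was left out. With Poly(I:C) in MSDC it went from 1 to 2 with no filter, where Cmklr1 was also called, and ran from 0 to 1 when 1 library was left out. With MSDC it ran from 4 to 4 without Poly(I:C) and from 4 to 5 with it. The cause of these changes was not tested. Over all genes, the interaction calls of 14 higher and 12 lower became 14 and 4 with library totals alone, 64 and 52 with no filter and 23 and 24 with DESeq2. The calls for Poly(I:C) in MSDC, 560 higher and 174 lower, became 769 and 415 with those groups fitted alone. Signs turned only in values that had not passed the test. With replicate 1 of Poly(I:C) with MSDC left out, the Poly(I:C) change in MSDC became 0.021 for Ccr1, -0.21 for Ccr2 and -0.24 for Cmklr1 (ranges over left-out libraries -0.10 to 0.021, -0.21 to 0.88 and -0.24 to 1.20), and the interaction of Ccr2 became -0.32 (-0.32 to 0.78). The interaction of Cmklr1 was 0.33 without replicate 2 of Poly(I:C) with MSDC (-1.14 to 0.33), and that of Cxcr4 was 0.023 without vehicle replicate 2 and 0.0046 without MSDC replicate 1 (-0.16 to 0.023). The MSDC change of Ccrl2 in unstimulated cells was -0.046 without MSDC replicate 1 (-0.046 to 0.10).

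A fit with the replicate number as a block called 2, 1, 4, 5 and 0 receptors, as the fit without it did. Same-numbered libraries did not deviate together to a detectable degree (correlations of -0.026 to 0.034 over the 6 pairs of groups). The labels do not say whether the numbers pair the samples, and these correlations do not settle it. Each group had 2 libraries, and under MSDC Ccr2 stood at 0.676 to 1.64 CPM and Cmklr1 at 1.64 to 4.49 CPM. Small differences between the 2 Poly(I:C) responses were not resolved with so few libraries and such low levels.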
